A study of Mus musculus with 4 samples.

Results

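The myeloid C-type lectin receptors described here are 10 genes, Clec4a1, Clec4a2, Clec4a3, Clec4d, Clec4e, Clec4n, Clec7a, Clec9a, Clec10a and Clec12a, taken by name from the 21878 rows of the count tables. All 10 were found in each of the 4 libraries. The RNA came from C57BL/6 mouse liver cells that had been sorted with magnetic beads for CD24, a surface protein used to enrich liver progenitor cells. HACY mice (2 libraries) received the small molecules Y-27632 (which blocks the kinase ROCK), A-83-01 (which blocks TGF-beta receptor kinases) and CHIR99021 (which blocks GSK3) by intraperitoneal injection 3 times a week for 6 weeks. CCL4 mice (2 libraries) received carbon tetrachloride, a toxin that injures hepatocytes and scars the liver, at 2 ml/kg in olive oil (ratio 1 to 4), 2 times a week for 6 weeks. Mice were 8 weeks old at injection by the protocol, and the age label reads 6-8 weeks. The labels do not say whether HACY mice also received carbon tetrachloride, and no untreated group was analysed here, so a difference below is one between these treatments. They also do not say whether the libraries of a group came from separate mice or from pools, so the spread behind each p-value may be technical.

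C-type lectin receptors of myeloid cells sit in the outer membrane and bind sugars, lipids or proteins of microbes and of damaged cells. Some carry or recruit an activating motif (ITAM or a single-tyrosine form of it) that engages the kinase Syk and the adaptor Card9, while others carry an inhibitory motif (ITIM) that recruits phosphatases such as Ptpn6. In the liver they are known from Kupffer cells, the resident macrophages, and from monocyte-derived macrophages, dendritic cells and neutrophils, whereas hepatocytes and cholangiocytes are not their usual source.

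The labels call the cells hepatocytes as well as CD24+ progenitors, and the libraries held Cd24a RNA and hepatocyte RNA together with myeloid RNA. Cd24a had 21.9 and 19.4 CPM in HACY libraries and 20.7 and 38.0 CPM in CCL4 libraries (log2 fold change -0.51, edgeR adjusted p = 0.279). CPM is the usual depth-normalised count, scaled by edgeR's TMM factors. The 10 hepatocyte markers summed to 26998 and 33897 CPM in HACY libraries, against 8160 and 6777 CPM in CCL4 libraries. Of the 10, 8 rose, with a median log2 fold change of 1.20. The libraries held 18985478 to 19151738 counts in the HACY group and 18467299 to 19314219 in the CCL4 group. In bulk RNA of this kind, a larger share of receptor-bearing cells and more receptor RNA per cell cannot be told apart.

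Promoter sequence is shown first for some of the receptors whose level differed between treatments and for Clec4e, whose level did not pass the test. PU.1 (gene Spi1), the master transcription factor of myeloid cells, binds a GAGGAA core, and every window printed here holds one. RefSeq promoters on GRCm38.p6 were matched by symbol for 8 of the 10 genes: all but Clec4n and Clec10a. The 250 bases upstream of the RefSeq start are printed 5′ to 3′ on the gene's own strand, with GAGGAA on either strand (TTCCTC on the opposite one) in capitals. The windows are chr6:122921598-122921847 (plus strand) for Clec4a1, chr6:122952394-122952643 (plus strand, the downstream of its 2 listed starts) for Clec4a3, chr6:129349994-129350243 (plus strand) for Clec12a, chr6:129472780-129473029 (minus strand) for Clec7a and chr6:123289872-123290121 (minus strand) for Clec4e.
Clec4a1: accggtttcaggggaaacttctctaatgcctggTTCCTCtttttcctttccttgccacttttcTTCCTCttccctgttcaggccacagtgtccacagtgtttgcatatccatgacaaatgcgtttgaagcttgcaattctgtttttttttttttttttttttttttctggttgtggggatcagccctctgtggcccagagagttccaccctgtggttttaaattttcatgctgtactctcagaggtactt
Clec4a3: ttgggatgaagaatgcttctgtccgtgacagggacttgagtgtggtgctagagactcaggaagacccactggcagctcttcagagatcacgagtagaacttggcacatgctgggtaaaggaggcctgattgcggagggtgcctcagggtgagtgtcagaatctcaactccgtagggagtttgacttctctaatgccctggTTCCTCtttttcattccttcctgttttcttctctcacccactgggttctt
Clec12a: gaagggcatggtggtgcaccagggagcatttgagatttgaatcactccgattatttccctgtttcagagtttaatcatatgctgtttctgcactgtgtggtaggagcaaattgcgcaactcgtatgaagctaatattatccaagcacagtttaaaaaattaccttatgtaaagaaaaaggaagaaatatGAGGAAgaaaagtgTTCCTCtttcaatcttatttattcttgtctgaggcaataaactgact
Clec7a: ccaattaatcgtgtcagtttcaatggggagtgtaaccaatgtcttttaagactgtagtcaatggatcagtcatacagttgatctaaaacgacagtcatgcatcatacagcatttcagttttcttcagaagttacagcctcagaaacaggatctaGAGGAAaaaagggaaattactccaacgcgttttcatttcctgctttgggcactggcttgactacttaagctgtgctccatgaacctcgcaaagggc
Clec4e: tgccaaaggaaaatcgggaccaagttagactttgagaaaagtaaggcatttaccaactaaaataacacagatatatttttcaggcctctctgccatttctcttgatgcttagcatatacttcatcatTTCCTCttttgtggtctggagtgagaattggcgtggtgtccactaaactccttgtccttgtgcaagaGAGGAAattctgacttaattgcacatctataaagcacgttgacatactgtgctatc

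GAGGAA was present in a window of 6 of the 8 genes, namely Clec4a1, Clec4a3, Clec4d, Clec4e, Clec7a and Clec12a. The windows of Clec4a2, which also differed between treatments, and of Clec9a held none and are not printed. For Clec4a3 it was in the printed window only, and the window of its upstream listed start held none. Clec7a held it in the windows of both of its listed starts. Of all 27025 genes in the promoter table, 25.9% held it, and 23.3% of all 32851 promoter windows did. Clec12a carried it on both strands close together, with first bases at -61 and -47 relative to the RefSeq start. That window lies inside the GENCODE span of Clec12a (129342691 to 129365303), so the outermost annotated start was not scanned. The same holds for the Clec4a2 window. A C/EBP motif, TTGCNNAA, was in the windows of Clec4e and Clec12a (10.8% of all genes), and in Clec4e (first base -66) it lay just before a GAGGAA (first base -56) without sharing a base. An AP-1 motif, TGANTCA, was in that of Clec12a (7.8% of all genes). An IRF motif, GAAANNGAA, was in none of the 8 windows (8.2% of all genes). These are matches of letters in a short window on both strands, and no binding was measured.

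All 10 receptors passed the filter on low counts, and each was higher in both HACY libraries than in both CCL4 libraries, a pattern that 30.7% of the 13428 tested genes shared. By edgeR's quasi-likelihood test with Benjamini-Hochberg adjustment over all tested genes, 6 of the 10 rose in HACY cells (Clec4a1, Clec4a2, Clec4a3, Clec12a, Clec7a and Clec4d) and 0 fell. Of all tested genes, 11.7% were called, 8.19% higher and 3.54% lower (1100 and 476 genes). That split was 856 higher and 1355 lower when libraries were scaled by total counts alone, and 662 higher and 634 lower on the FPKM scale. The median log2 fold change of the receptors was 1.30, beside -0.01 for all tested genes. The receptors together had 402 and 291 CPM in HACY libraries, against 115 and 148 CPM in CCL4 libraries, means of 346 ± 78.2 and 131 ± 22.9 CPM (SD, n = 2 each), a ratio of 2.64. This was 0.0384% and 0.0270% of all counts in HACY libraries and 0.0123% and 0.0155% in CCL4 libraries. Between 9 and 2278 counts stood behind each receptor's value in a library.

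**Figure D1:**
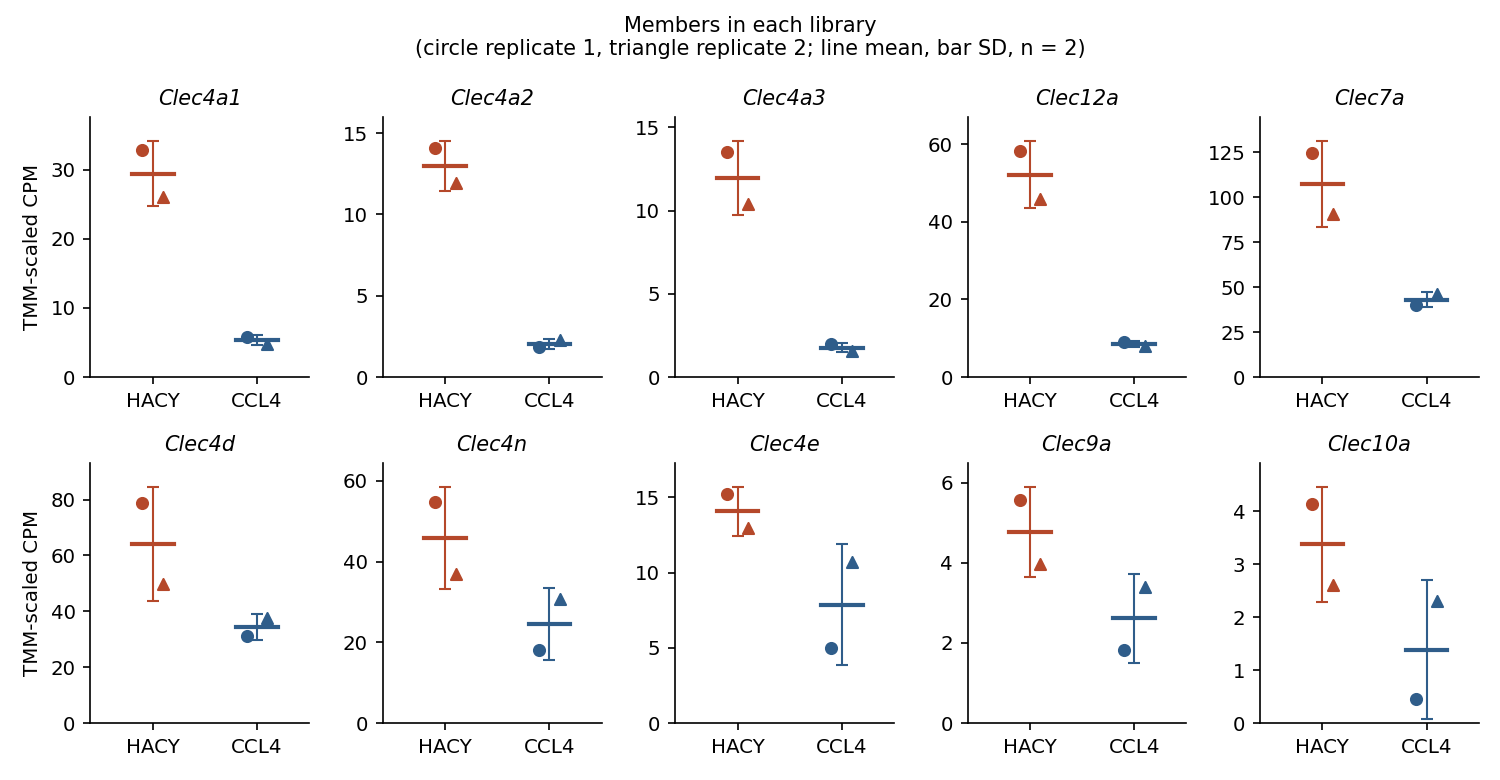
Level of each of the 10 receptors in TMM-scaled CPM (linear axes from 0) in HACY libraries (left) and CCL4 libraries (right); points are libraries, lines means and bars SD (n = 2). In each panel both HACY points lie above both CCL4 points, widely for Clec4a1, Clec4a2, Clec4a3 and Clec12a, and narrowly for Clec10a, at 2.61 against 2.32 CPM.

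The largest differences among the receptors were those of the Clec4a genes and Clec12a, at 5.51-fold to 6.73-fold. Clec4a2 encodes DCIR, an ITIM-bearing receptor of dendritic cells and macrophages, and had 14.1 and 11.9 CPM in HACY libraries, against 1.82 and 2.27 CPM in CCL4 libraries. This was a log2 fold change of 2.67 ± 0.29 (SE), with edgeR adjusted p = 0.00284. Clec4a1 and Clec4a3 are DCIR-related genes of the same cluster. Clec4a1 had 32.8 and 26.1 CPM in HACY libraries, against 5.87 and 4.83 CPM in CCL4 libraries (log2 fold change 2.46 ± 0.23, edgeR adjusted p = 0.00188). Clec4a3 had 13.5 and 10.4 CPM in HACY libraries, against 1.97 and 1.58 CPM in CCL4 libraries (log2 fold change 2.75 ± 0.31, edgeR adjusted p = 0.00325). For all 3, the lower HACY library was more than 4 times the higher CCL4 library.

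Clec12a encodes MICL, an ITIM-bearing receptor that binds uric acid crystals and dampens responses to dead cells. It had 58.4 and 46.0 CPM in HACY libraries, against 9.0 and 7.89 CPM in CCL4 libraries. The log2 fold change was 2.63 ± 0.20 (edgeR adjusted p = 0.00104), the smallest p among the receptors and rank 32 of the 13428 tested genes. The replicates of each group lay close together beside the gap between groups.

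Clec7a encodes Dectin-1, the beta-glucan receptor, which carries the single-tyrosine activating motif. It had the highest counts of the 10, with 124 and 90.5 CPM in HACY libraries against 40.0 and 46.1 CPM in CCL4 libraries. Its log2 fold change was 1.32 ± 0.18 (2.50-fold, edgeR adjusted p = 0.00636), with an approximate 95% interval of 0.89 to 1.75 that lay below the interval of Clec12a (2.16 to 3.10). The groups did not overlap. Clec9a encodes DNGR-1, which binds filamentous actin exposed by dead cells and marks cross-presenting dendritic cells. It was near the bottom of the range, with 5.57 and 3.97 CPM in HACY libraries and 1.82 and 3.40 CPM in CCL4 libraries (log2 fold change 0.87 ± 0.41, edgeR adjusted p = 0.206). The annotated span of Clec9a overlaps that of Clec1b on the same strand, so how reads were divided between them is uncertain. Xcr1, the defining receptor of cross-presenting dendritic cells, had 1 count in HACY replicate 1 and 0 in the other 3 libraries.

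The receptors that signal through the Fc receptor gamma chain were higher by less than 2-fold. Clec4d encodes MCL, a partner of Mincle, and had 78.6 and 49.7 CPM in HACY libraries, against 31.0 and 37.6 CPM in CCL4 libraries. Its log2 fold change of 0.90 ± 0.23 passed the threshold narrowly (edgeR adjusted p = 0.0495). It no longer passed in 8 of 12 alternatives, among them those that left out HACY replicate 1 (0.53, edgeR adjusted p = 0.341) or CCL4 replicate 1 (edgeR adjusted p = 0.128). Clec4n encodes Dectin-2, a receptor for fungal mannans, and had 54.9 and 37.0 CPM in HACY libraries and 18.2 and 30.9 CPM in CCL4 libraries (log2 fold change 0.91 ± 0.29, edgeR adjusted p = 0.0914). Clec4e encodes Mincle, which binds mycobacterial cord factor and the nuclear protein SAP130 from dying cells. It had 15.2 and 12.9 CPM in HACY libraries and 5.01 and 10.7 CPM in CCL4 libraries (log2 fold change 0.84 ± 0.36, edgeR adjusted p = 0.167). For Clec4n and Clec4e, CCL4 replicate 2 lay closer to the HACY libraries than CCL4 replicate 1 did. Without CCL4 replicate 2, both passed the threshold, at log2 fold changes of 1.34 and 1.49 (edgeR adjusted p = 0.0176 and 0.0131).

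Clec10a encodes MGL1, a macrophage receptor for galactose and N-acetylgalactosamine, and was the least abundant by counts. It had 4.15 and 2.61 CPM (76 and 46 counts) in HACY libraries and 0.455 and 2.32 CPM (9 and 47 counts) in CCL4 libraries. HACY replicate 2 and CCL4 replicate 2 were nearly level, and the log2 fold change of 1.28 ± 0.68 did not pass the threshold (edgeR adjusted p = 0.250). The approximate 95% interval ran from -0.31 to 2.87, so at this depth and spread neither equality nor a change as large as that of the Clec4a genes was resolved. Without CCL4 replicate 2 the log2 fold change was 2.88 (edgeR adjusted p = 0.0194).

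**Figure D2:**
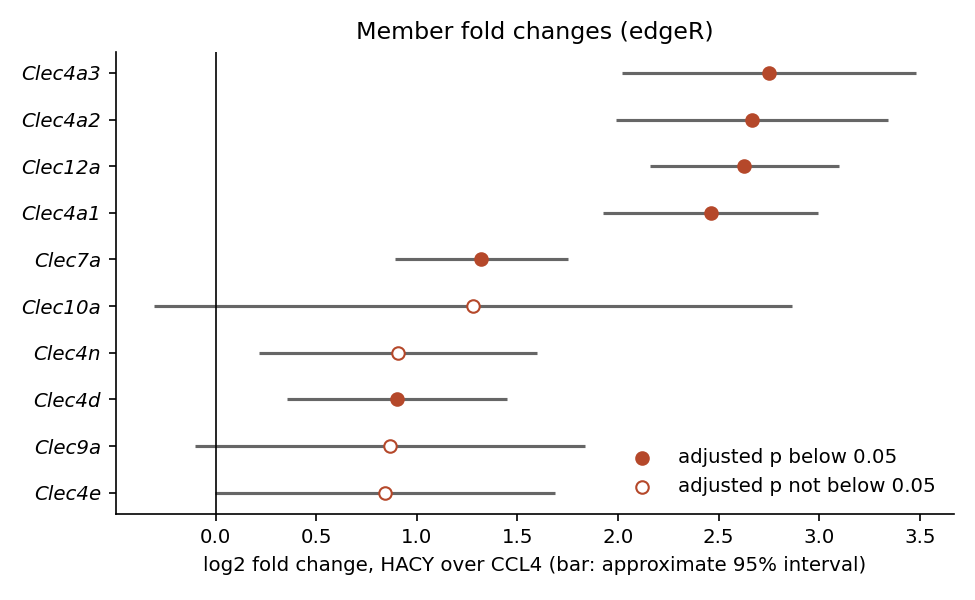
Log2 fold change of each receptor, HACY over CCL4, from edgeR, with approximate 95% intervals; filled points passed an adjusted p of 0.05. Clec4a3, Clec4a2, Clec12a and Clec4a1 lie between 2.46 and 2.75, and the other 6 lie between 0.84 and 1.32.

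All 10 were higher in HACY replicate 1 than in HACY replicate 2 (median log2 ratio 0.40), as were 6728 of the 13428 tested genes. In CCL4 libraries, 7 of 10 were higher in replicate 2 than in replicate 1 (median log2 ratio 0.26), as were 6772 of the 13428 tested genes. The exceptions were Clec4a1, Clec4a3 and Clec12a, whose CCL4 values were slightly lower in replicate 2.

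Levels of different genes can be compared per length of transcript, for which the deposited FPKM (fragments per kilobase of transcript, scaled to library depth) served. By mean FPKM the same 5 receptors led in both treatments, in the order Clec4d, Clec4n, Clec7a, Clec12a and Clec4a1. Their means were 35.0, 30.3, 28.4, 19.7 and 16.4 FPKM in HACY libraries and 21.3, 18.0, 12.5, 3.53 and 3.31 FPKM in CCL4 libraries. In both treatments the ranges of Clec4d, Clec4n and Clec7a overlapped in sequence, as did those of Clec12a and Clec4a1, while Clec7a stood clear of Clec12a. Clec4a3 came sixth in HACY libraries (9.39 ± 1.86 FPKM) and seventh in CCL4 libraries (1.56 ± 0.23 FPKM). The remaining receptors were at or below 3.48 FPKM, with Clec9a last in both treatments at 0.970 ± 0.182 FPKM in HACY libraries and 0.616 ± 0.330 FPKM in CCL4 libraries (SD, n = 2 each). The gap between Clec7a and Clec12a was wider in CCL4 libraries.

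The composition of the receptor pool differed between treatments. Clec12a made up 12.8% and 14.1% of the receptors' summed FPKM in HACY libraries, against 6.72% and 4.65% in CCL4 libraries. Clec4a1 made up 10.7% and 11.6% in HACY libraries, against 6.55% and 4.18% in CCL4 libraries. Clec4d, which led the pool, made up 24.7% and 22.2% in HACY libraries, against 34.6% and 32.2% in CCL4 libraries. Clec7a held nearly the same share throughout, 19.1% and 19.3% in HACY libraries and 20.5% and 18.8% in CCL4 libraries.

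Ratios within a library do not depend on how libraries are scaled. The following ratios were chosen after the values were seen and are given as a description. The summed CPM of Clec4a1, Clec4a2 and Clec4a3 was 0.406 and 0.486 of that of Clec4d, Clec4e and Clec4n in HACY libraries, against 0.178 and 0.110 in CCL4 libraries. Clec12a stood at 0.469 and 0.508 of Clec7a in HACY libraries, against 0.225 and 0.171 in CCL4 libraries. Within the gamma chain group the ratios overlapped between treatments. Clec4n stood at 0.698 and 0.745 of Clec4d in HACY libraries and 0.585 and 0.820 in CCL4 libraries, and Clec4e at 0.194 and 0.261 of Clec4d in HACY libraries and 0.161 and 0.284 in CCL4 libraries.

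Each receptor was then set against the summed CPM of 16 genes expressed by myeloid cells in general, among them Ptprc, Itgam, Csf1r, Cd68 and Lyz2. These 16 genes summed to 2659 and 1980 CPM in HACY libraries, against 854 and 1390 CPM in CCL4 libraries. Of the 16, 11 rose and 0 fell, with a median log2 fold change of 1.13. That count was 7 without HACY replicate 1. Per 1000 CPM of these genes, Clec12a had 22.0 and 23.2 CPM in HACY libraries, against 10.5 and 5.67 CPM in CCL4 libraries, a log2 difference of 1.55. Clec4a1 had 12.3 and 13.2 CPM in HACY libraries, against 6.87 and 3.48 CPM in CCL4 libraries, a log2 difference of 1.38. The corresponding log2 differences were 1.60 for Clec4a2 and 1.67 for Clec4a3. In these 4 genes both HACY libraries were above both CCL4 libraries, which gives a two-sided exact permutation p of 0.333, the smallest that 2 libraries against 2 allow. On this scale 3.52% of all tested genes were above in the same way.

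The other 6 receptors did not stand above the pan-myeloid genes in this way. Clec7a had 46.8 and 45.7 CPM per 1000 CPM in HACY libraries and 46.8 and 33.2 in CCL4 libraries (log2 difference 0.23, exact permutation p = 1.0). Clec4d had 29.6 and 25.1 in HACY libraries and 36.4 and 27.1 in CCL4 libraries, a log2 difference of -0.20 with overlapping groups. Clec4e and Clec10a also overlapped, at log2 differences of -0.13 and 0.61. Clec4n and Clec9a were lower in both HACY libraries, by small margins. Clec4n had 20.6 and 18.7 in HACY libraries, against 21.3 and 22.2 in CCL4 libraries, and Clec9a had 2.10 and 2.01 in HACY libraries, against 2.13 and 2.45 in CCL4 libraries (exact permutation p = 0.333 each, again the smallest possible). Of all tested genes, 82.8% were below in this way.

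**Figure D3:**
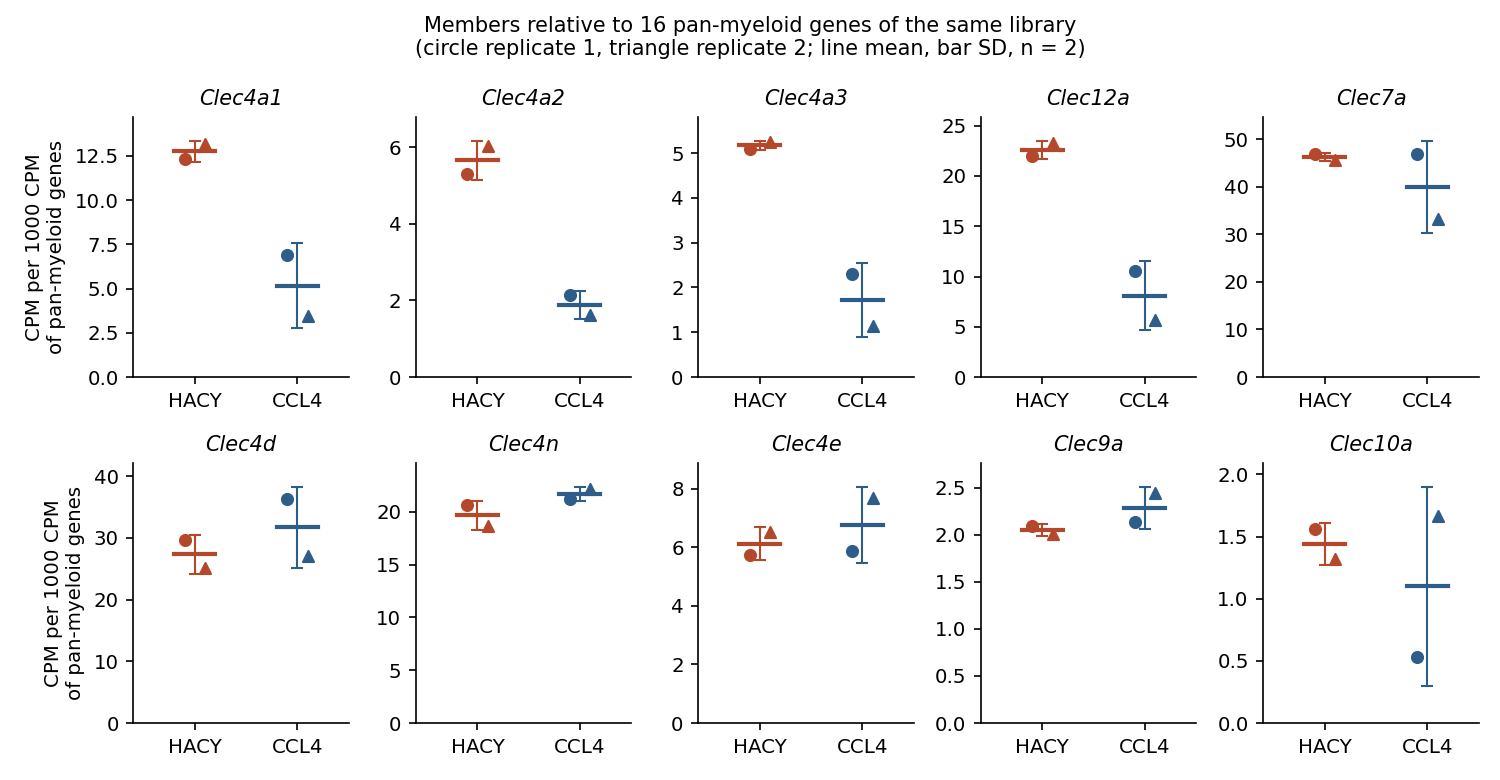
CPM of each receptor per 1000 CPM of 16 pan-myeloid genes in the same library (linear axes from 0), HACY libraries on the left and CCL4 libraries on the right; points are libraries, lines means and bars SD (n = 2). Clec4a1, Clec4a2, Clec4a3 and Clec12a are higher in both HACY libraries, while for the other 6 the groups overlap or HACY lies slightly lower.

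Markers of the cell types that can carry these receptors were read in the same libraries. All 14 Kupffer cell and macrophage markers rose (median log2 fold change 1.61), and their sum was 3006 and 2211 CPM in HACY libraries, against 822 and 929 CPM in CCL4 libraries. Without HACY replicate 1, 11 of the 14 passed. Adgre1, which encodes the macrophage protein F4/80, had 131 and 93.5 CPM in HACY libraries, against 19.0 and 22.7 CPM in CCL4 libraries (log2 fold change 2.43, edgeR adjusted p = 0.00153). Set against the summed Kupffer and macrophage markers in place of the pan-myeloid genes, Clec4a1, Clec4a2, Clec4a3 and Clec12a were still higher in both HACY libraries, by log2 differences of 0.90, 1.11, 1.19 and 1.06, as were 1.82% of all tested genes. Clec7a turned to -0.25 on that scale. Clec4d, Clec4e, Clec4n and Clec9a stood lower still there, at -0.69, -0.62, -0.63 and -0.64.

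The monocyte, neutrophil and conventional dendritic cell lists had lower medians. Of 13 tested monocyte markers, 1 rose (Treml4) and 0 fell, with a median log2 fold change of 0.08. The count was 3 without CCL4 replicate 2, and without CCL4 replicate 1 it was 1 in each direction. The median was -0.23 without CCL4 replicate 1 and -0.09 by total counts alone. Their sum was 3449 and 5260 CPM in HACY libraries and 2337 and 4186 CPM in CCL4 libraries, mostly from Fn1, which hepatocytes also make. Of 13 tested neutrophil markers, 2 fell (Cxcr2 and Mmp9) and 1 rose (Lcn2, which injured hepatocytes also make), with a median of -0.62. That median was -3.23 without CCL4 replicate 1 and 0.42 without CCL4 replicate 2. No neutrophil marker was called without HACY replicate 2, and neither Cxcr2 nor Mmp9 was called without HACY replicate 1. Without CCL4 replicate 1, 9 fell, and without CCL4 replicate 2, 5 rose and 2 fell. CCL4 replicate 2 stood apart here. S100a8 had 2.57 and 3.06 CPM in HACY libraries, against 5.51 CPM in CCL4 replicate 1 and 51.8 CPM in CCL4 replicate 2. Of 7 tested markers of cross-presenting (type 1) dendritic cells 1 rose (Tlr3), a count of 3 without CCL4 replicate 2. Their list summed to 421 and 439 CPM in HACY libraries and 324 and 329 CPM in CCL4 libraries. Of 10 tested markers of type 2 and general dendritic cells 4 rose (Itgax, Sirpa, Ccr7 and Kmo), a count of 2 without HACY replicate 1. That list summed to 553 and 414 CPM in HACY libraries and 210 and 291 CPM in CCL4 libraries. Cd209a was at 0 in all 4 libraries and Mgl2 had at most 7 counts. The plasmacytoid dendritic cell list had the highest median of the cell type lists, 1.80 over 6 tested genes. With at least 1 CPM required in 3 libraries that median was 0.65 over 3 genes, and on the FPKM scale 0.48 over 4. The Kupffer and macrophage list was at 1.60 and 1.41 in those settings. Of the 6 tested genes of the plasmacytoid list, 3 rose (Ly6d, Klk1 and Bst2). It summed to 535 and 481 CPM in HACY libraries, against 293 and 357 CPM in CCL4 libraries, mostly from Bst2 and Tcf4, which many cells express. The count was 1 without CCL4 replicate 1, and 2 with either HACY replicate left out. Klk1 had 0 counts in both CCL4 libraries, and Siglech, the defining surface marker, did not pass, with 3.39 and 0.624 CPM in HACY libraries and 0.303 and 0.197 CPM in CCL4 libraries (edgeR adjusted p = 0.0742). The part of these cell types in the receptors' differences was not tested.

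**Figure D4:**
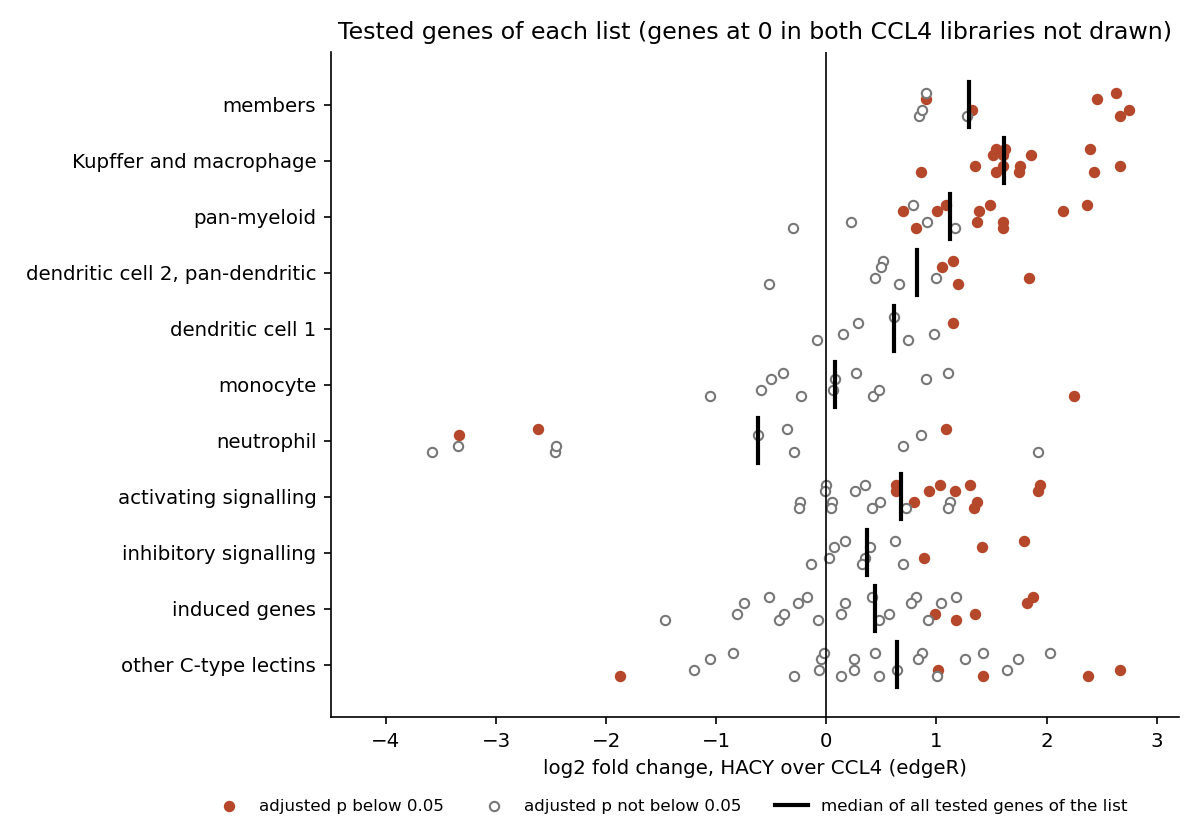
Log2 fold changes, HACY over CCL4, of the tested genes of each list (edgeR); filled points passed an adjusted p of 0.05 and black bars mark the medians over all tested genes of a list. The receptors (median 1.30) lie near the Kupffer and macrophage list (1.61) and the pan-myeloid list (1.13). They lie above the monocyte (0.08) and neutrophil (-0.62) lists, both of whose medians turn sign with 1 CCL4 library left out. Not drawn are, among others, the hepatocyte list (1.20) and the plasmacytoid dendritic cell list (1.80). The latter was at 0.65 with at least 1 CPM required in 3 libraries.

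Most of the receptors lie in gene clusters. In the Clec4 cluster, the Clec4a genes had changes of like size, as did Clec4n, Clec4d and Clec4e. On GRCm38, 6 of the receptors occupy this cluster, which spans 368 kb on chromosome 6 from 122921848 to 123289870. Their order is Clec4a1, Clec4a3, Clec4a2, Clec4n, Clec4d and Clec4e. Clec12a, Clec9a and Clec7a lie in a Dectin-1 cluster of 130.1 kb on the same chromosome from 129342691 to 129472779, 6.05 Mb away. Clec10a is on chromosome 11 from 70156197 to 70170834. In the Clec4 cluster, the first 3 genes had log2 fold changes of 2.46, 2.75 and 2.67 and the last 3 had 0.91, 0.90 and 0.84. Clec4a4 and Clec4b1 lie between Clec4a3 and Clec4a2, and Clec4b2 between Clec4a2 and Clec4n; they had at most 3, 1 and 0 counts in a library.

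Genes flanking the clusters did not all follow. Within 100 kb, 3 genes that are not receptors of this set were tested beside the Clec4 cluster, and 1 rose, C3ar1, the complement C3a receptor of myeloid cells (log2 fold change 1.48, edgeR adjusted p = 0.00365). Foxj2 and Necap1 were at -0.19 and -0.18. Around the Dectin-1 cluster, 5 such genes were tested and 1 rose, Olr1, the receptor for oxidised LDL (log2 fold change 1.42, edgeR adjusted p = 0.0273), which did not pass when HACY replicate 1 or CCL4 replicate 1 was left out. Clec1b, the podoplanin receptor CLEC-2, had a log2 fold change of 0.87 (edgeR adjusted p = 0.0540), close to the 0.87 of Clec9a, whose annotation it overlaps. Clec1a, Cd69 and Gabarapl1 were at 0.25, 0.48 and -0.18.

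**Figure D5:**
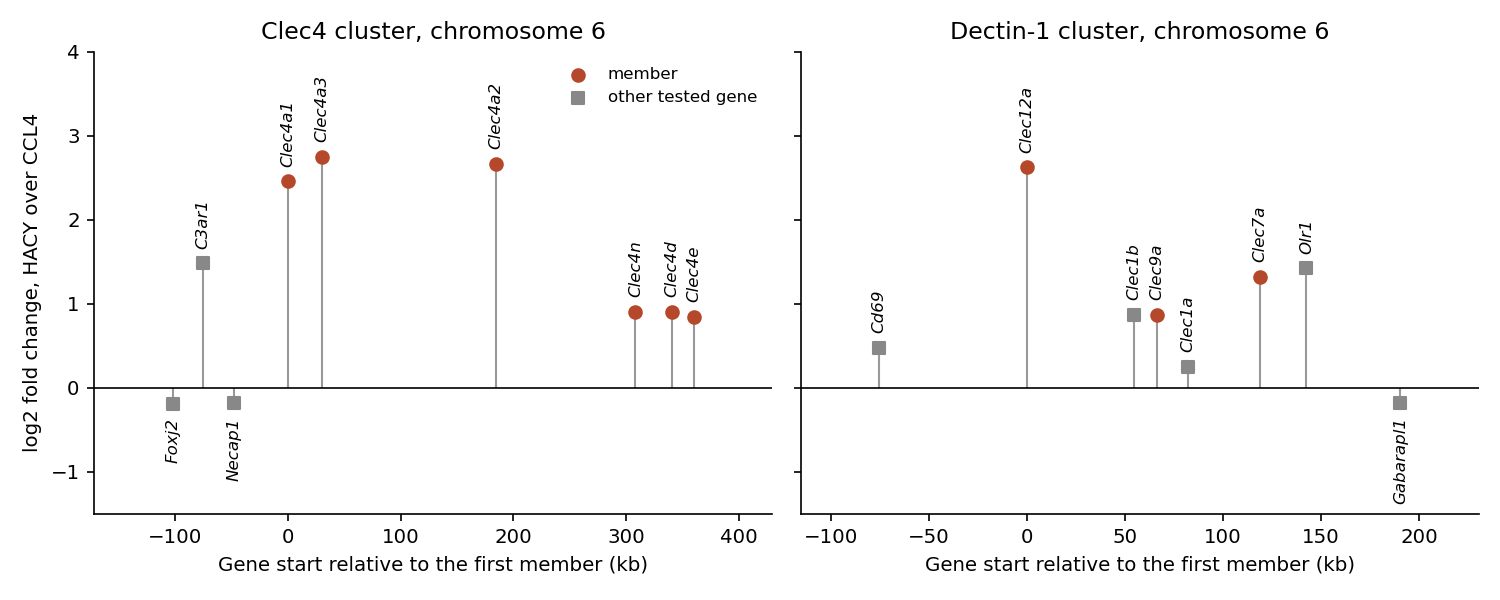
Log2 fold change, HACY over CCL4, of receptors (circles) and other tested genes (squares) against the distance of the gene start from the first receptor of each cluster in kb. In the Clec4 cluster the 3 Clec4a genes lie at 2.46 to 2.75 and Clec4n, Clec4d and Clec4e at 0.84 to 0.91; in the Dectin-1 cluster Clec12a stands at 2.63 and Clec7a at 1.32.

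Close relatives could share reads. The longest open reading frames of Clec4a2 and Clec4a4 were 77.3% identical, and the whole transcripts holding them had a longest shared stretch of 163 bases. The reading frames of Clec4a2 and Clec4b1 were 70.0% identical, with a longest shared transcript stretch of 82 bases. Clec4a4 and Clec4b1 had at most 3 counts in a library, and reads that could have come from either gene cannot be told apart here. Among the receptors themselves the longest shared transcript stretch was 34 bases (Clec4a2 and Clec4a3, with reading frames 68.3% identical).

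Of the activating pathway that the ITAM-coupled receptors use, 11 of 24 tested genes rose and 0 fell (median log2 fold change 0.68). Fcer1g, the gamma chain that pairs with Dectin-2, MCL and Mincle, had 151 and 115 CPM in HACY libraries, against 26.2 and 44.3 CPM in CCL4 libraries (log2 fold change 1.92 ± 0.26, edgeR adjusted p = 0.00636). Syk had 108 and 88.6 CPM in HACY libraries, against 46.8 and 56.1 CPM in CCL4 libraries (log2 fold change 0.93 ± 0.16, edgeR adjusted p = 0.0139). Tyrobp, the adaptor DAP12, and Vav1, an exchange factor, rose by log2 fold changes of 1.30 and 1.37. Card9 had 9.72 and 6.92 CPM in HACY libraries and 2.28 and 5.37 CPM in CCL4 libraries, which did not pass (log2 fold change 1.12, edgeR adjusted p = 0.135). Its partners Bcl10 and Malt1, which many cell types express, were at -0.24 and 0.00. The count of 11 rested on single libraries: 2 genes were called without HACY replicate 1, Fcer1g among them, and 7 genes were called without HACY replicate 2 or without CCL4 replicate 1.

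Of 12 genes of inhibitory signalling, 3 rose and 0 fell (median log2 fold change 0.37). Inpp5d, the lipid phosphatase SHIP1, had 98.0 and 72.0 CPM in HACY libraries, against 24.1 and 39.6 CPM in CCL4 libraries (log2 fold change 1.42 ± 0.26, edgeR adjusted p = 0.0185). Ptpn6, the phosphatase SHP-1 that binds ITIMs, had 69.4 and 59.5 CPM in HACY libraries, against 29.8 and 39.8 CPM in CCL4 libraries (log2 fold change 0.89 ± 0.18, edgeR adjusted p = 0.0255). The third was Dok2, an adaptor. Without HACY replicate 1, Inpp5d alone of the 12 was called. Ptpn11, the phosphatase SHP-2 of most cells, was at 0.07.

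Genes known to be induced through Dectin-1, Dectin-2 or Mincle did not move as a block. Of 24 tested, 5 rose and 0 fell (median log2 fold change 0.45). Il1a, an alarmin cytokine, had 72.7 and 50.6 CPM in HACY libraries, against 19.0 and 15.8 CPM in CCL4 libraries (log2 fold change 1.82 ± 0.22, edgeR adjusted p = 0.00384). The other 4 were Nfkbiz, Tnf, Il10 and Nlrp3. Il1a was the only one of the 5 called without HACY replicate 1. The count was 3 when CCL4 replicate 1 was left out. Without CCL4 replicate 2 it was 8 higher and 2 lower. The neutrophil chemokine gene Cxcl2 had 108 and 46.3 CPM in HACY libraries and 292 and 134 CPM in CCL4 libraries (log2 fold change -1.46, edgeR adjusted p = 0.0843). It passed as lower with the replicate block (-1.48, edgeR adjusted p = 0.00187) and without CCL4 replicate 2 (edgeR adjusted p = 0.0412).

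Among 19 tested transcription factors of myeloid cells, 5 rose, among them Irf5, Spi1, Id2 and Tfec, and 3 fell (Cebpa, Bcl6 and Cebpb). Tfec (edgeR adjusted p = 0.0495) and Cebpb (edgeR adjusted p = 0.0449) passed narrowly. Neither was called by limma-voom, on the FPKM scale or with the replicate block. Which cells these changes came from was not tested. Spi1, which encodes PU.1, had 82.7 and 55.6 CPM in HACY libraries, against 22.0 and 30.9 CPM in CCL4 libraries (log2 fold change 1.39 ± 0.24, edgeR adjusted p = 0.0149). Cebpa had 38.9 and 32.5 CPM in HACY libraries, against 66.5 and 66.3 CPM in CCL4 libraries (log2 fold change -0.90 ± 0.15, edgeR adjusted p = 0.0130), and did not pass without HACY replicate 2. The count was 3 higher and 1 lower without HACY replicate 1, and 4 higher and 0 lower without HACY replicate 2.

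The rest of the C-type lectin superfamily was less uniform. Of 40 further genes, 27 were tested, 5 rose and 1 fell (median log2 fold change 0.65). Cd72, an ITIM-bearing lectin best known from B cells, had 10.7 and 11.5 CPM in HACY libraries, against 2.17 and 2.07 CPM in CCL4 libraries (log2 fold change 2.38 ± 0.28, edgeR adjusted p = 0.00360). Clec4f, the Kupffer cell lectin, had 13.6 and 11.2 CPM in HACY libraries, against 2.83 and 1.08 CPM in CCL4 libraries (log2 fold change 2.66 ± 0.44, edgeR adjusted p = 0.0119). Cd209f had 14 and 11 counts in HACY libraries and 0 in both CCL4 libraries, at least 4.64-fold higher against a floor of 3 counts per library. Clec4g, the lectin of liver sinusoidal endothelium, fell to 0.710 and 0.738 CPM in HACY libraries, against 1.92 and 3.40 CPM in CCL4 libraries (log2 fold change -1.87, edgeR adjusted p = 0.0495), a call that was lost in 6 alternatives, while under the stricter filter the gene was not tested. The remaining 2 that rose were Olr1 and Cd93, an endothelial and myeloid glycoprotein. Mrc1, the mannose receptor of macrophages and endothelium, had 216 and 144 CPM in HACY libraries and 67.6 and 135 CPM in CCL4 libraries (log2 fold change 0.83, edgeR adjusted p = 0.142). The counts were 2 higher and 0 lower without HACY replicate 1, then 2 higher and 4 lower without CCL4 replicate 1, and 12 higher and 0 lower without CCL4 replicate 2.

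Among the genes whose profile over the 4 libraries lay nearest to the median profile of the receptors were Hcls1, Cd200r1, Slfn1 and Spi1. Likeness was measured as the root mean square distance between log2 CPM profiles centred on their own means, and ran from 0.055 for Hcls1 to 0.059 for Spi1. Hcls1, an actin-regulating adaptor of blood cells, had 100.1 and 74.6 CPM in HACY libraries and 27.0 and 40.2 CPM in CCL4 libraries. Among the receptors, Clec7a lay nearest to their median profile (0.144) and Clec12a farthest (0.666).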

How the data were processed

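Poly(A) RNA of MACS-sorted CD24+ cells was sequenced as stranded paired-end libraries, per the labels' protocols. Each file gives a whole-number count and an FPKM value per gene, per the file headers. Per the submitters' processing notes, the authors used Trimmomatic, HISAT2, Cufflinks, HTSeq and DESeq with the build mm10, and the strand setting of the counting is not given in the sources used here. Gene names altered to dates by a spreadsheet (27 rows) were not used as list genes.

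Deposited counts were kept where filterByExpr passed them (at least 10 counts, total of at least 15) and tested, with TMM scaling, in edgeR 4.0.16 (R 4.3.3; robust quasi-likelihood fit, treatment as the single term, two-sided), with p-values adjusted over 13428 genes and a threshold of 0.05. An SE is the log2 fold change divided by the root of its F statistic, and intervals at 95% are approximate. Relative levels were tested by exact permutation (SciPy 1.17.1). The common biological coefficient of variation was 16.49%.

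Alternatives were DESeq2 1.42.0, its size factors, total counts alone, limma-voom, limma 3.58.1 on log2(FPKM + 1) for genes with a mean FPKM of at least 0.5, no filter, at least 1 CPM in 3 libraries, a replicate block, and each library left out. The receptors and gene lists were chosen with earlier results of these data known. All 10 receptors, Cd24a, up to 4 genes of smallest p per list, 6 signalling genes and the 5 nearest profiles were named by rule. A few genes that the rule names are not reported here. Bcl10, Malt1, Ptpn11, Cxcl2, Mrc1, S100a8, Eomes, the further called genes and the cluster neighbours were named after their values were seen. Positions and transcripts come from the GENCODE annotation of GRCm38.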

Additional observations from a re-analysis of the deposited data

How the results depend on the processing

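Clec4a1, Clec4a2, Clec4a3, Clec7a and Clec12a passed the threshold in all 13 settings, with log2 fold changes of 2.00 to 2.62, 1.43 to 2.83, 2.01 to 2.93, 1.07 to 1.53 and 2.18 to 2.79. The 1.43 of Clec4a2 came from the log2(FPKM + 1) scale, which understates changes of low genes. Of 120 alternative values of the receptors' log2 fold changes, 0 reversed, 8 lost the call (all Clec4d) and 4 gained one (Clec4n with DESeq2, and Clec4n, Clec4e and Clec10a without CCL4 replicate 2). The receptors called numbered 5 to 9 over the settings. Leaving out 1 library moved the number of all genes called between 629 (without HACY replicate 1) and 3047 (without CCL4 replicate 2). A lone library is then assumed to vary like the other group.

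Against the pan-myeloid genes, leaving out each library in turn gave log2 differences of -0.42 to 0.0093 for Clec4d, -0.33 to 0.062 for Clec4e, -0.019 to 0.48 for Clec7a and -0.22 to 1.43 for Clec10a. The reversals came without CCL4 replicate 1 for Clec4d and Clec10a and without CCL4 replicate 2 for Clec4e and Clec7a. Clec7a also turned to -0.25 against the Kupffer and macrophage list. The cause was not tested. Clec4a1 had its lowest value, 0.89, without CCL4 replicate 2. Leave-one-library-out values of relative and summed levels were chosen after seeing the data.

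No label says that replicate numbers pair the libraries, and the deviations of same-numbered libraries correlated at -0.099. With the replicate number as a block, 1224 genes and 5 receptors were called (Clec4d at edgeR adjusted p = 0.0877). Activating signalling genes called fell to 6 with the block, 7 by total counts alone and 4 on the FPKM scale. Scaling by total counts alone shifted the median of all genes to -0.18. Of 480 list counts under alternatives, 88 moved by more than 1.5 times. With 2 libraries a group, the exact test cannot go below 0.333, and low counts limit Clec9a and Clec10a.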

Other observations

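Among cell types that do not usually carry these receptors, all 4 libraries held RNA of several. Of 10 tested endothelial markers, 3 rose by edgeR (Lyve1, Pecam1 and Tek) and 1 fell (Clec4g), and the list summed to 1652 and 1258 CPM in HACY libraries and 556 and 956 CPM in CCL4 libraries. The counts were 1 higher and 0 lower without HACY replicate 1, 1 in each direction without CCL4 replicate 1, and 7 higher and 0 lower without CCL4 replicate 2. Lyve1, a marker of sinusoidal endothelium that some macrophages share, had 27.3 and 26.5 CPM in HACY libraries, against 2.02 and 5.18 CPM in CCL4 libraries (log2 fold change 2.90, edgeR adjusted p = 0.00596). Of 8 tested cholangiocyte markers 1 rose (Cftr, which did not pass when HACY replicate 1 or CCL4 replicate 1 was left out), and 5 did without CCL4 replicate 2. Of 9 tested stellate cell and fibroblast markers edgeR called 0, DESeq2 called 1, and 1 had an unadjusted p below 0.05. Those 9 gave 6 higher without CCL4 replicate 2 and 3 lower without CCL4 replicate 1.

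Lymphoid RNA was scarce. Of 8 tested B cell markers 1 rose (Cd22, not called without HACY replicate 1), and the list summed to 57.1 and 44.5 CPM in HACY libraries and 34.0 and 37.3 CPM in CCL4 libraries. Of the T and NK cell list 2 genes passed the filter on low counts. Neither edgeR nor DESeq2 called them, though both had an unadjusted p below 0.05, Cd4 higher and Eomes lower in HACY libraries. The list summed to 3.55 and 3.23 CPM in HACY libraries and 1.82 and 1.92 CPM in CCL4 libraries.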
